A study of Homo sapiens with 9 samples.

Results

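Guides against XIAP, BIRC5, BIRC6, BIRC7 and BIRC8, the inhibitor of apoptosis genes other than BIRC2 and BIRC3, were followed through a pooled sgRNA screen in U251 cells. They were taken by the target gene given in the deposited count table, as every guide against XIAP or against a BIRC gene other than BIRC2 and BIRC3. This gave 50 of 11170 guides and 5 of 1117 target genes, with 10 guides per gene. Guides were matched by gene name and not by a measured value, but the genes, and the request for results with and without 1 guide, XIAP.8, were set with earlier results of these data known. RefSeq lists 4 of the 5 genes as protein coding and BIRC8 as a transcribed pseudogene.

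Inhibitor of apoptosis proteins carry BIR domains, zinc-binding folds through which several of them bind caspases or the proteins that release caspases from inhibition. XIAP blocks active caspases directly and is also a RING ubiquitin ligase, and DIABLO, released from mitochondria, displaces it from them. BIRC7 (livin) has 1 BIR domain and a RING domain, and BIRC8 resembles the C-terminal part of XIAP. BIRC5 (survivin) acts mainly in cell division as a subunit of the chromosomal passenger complex, and BIRC6 is a very large ubiquitin-conjugating enzyme that works at the midbody and on caspases and DIABLO. In glioma these genes are studied because damage by alkylating drugs can end in apoptosis.

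U251 is an established human glioma line. Cells that stably expressed sgRNAs were exposed to temozolomide, a DNA-alkylating drug, for 72 h before DNA was isolated. That time is given for the treated groups only, and none is given for the untreated cells. The cells of all groups were kept in 10% serum. The groups were TMZ 0 µM, TMZ 200 µM and TMZ 1500 µM, with 3 libraries each, numbered 1 to 3, and the cells of all groups carried the sgRNA pool. The doses are in µM in the titles but in nM in the protocol, so their unit is open and µM serves here as a group name. A guide's count measures how many copies of its sequence were present, so a guide that rises marks cells that became a larger share of the population, not an expression level.

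The labels do not say whether the replicate numbers were separate cultures, so all p-values reflect only how far these libraries differ from each other, and that spread may be technical. Neither a plasmid pool nor a library from before treatment was analysed here. The letters of the guides were not used here, so whether a guide against XIAP also matches BIRC8, its close relative, was not tested.

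Total counts ranged from 1852340 to 2790563 per library, an average of 166 to 250 counts per guide, and a count of 0 allows up to 3 counts, or 1.08 to 1.62 CPM (counts scaled to the library's total). Such floors, and the intervals given below, cover counting error only. Same-numbered libraries resembled each other whatever the dose: over the tested guides, their deviations from the mean of their dose had r of 0.66 to 0.78, against -0.45 to -0.26 for other pairs of libraries from different doses. Such deviations sum to 0 within a dose, which pushes r of the other pairs below 0. For the levels themselves, as log2(CPM + 1), r was 0.79 to 0.89 for the same number and 0.40 to 0.48 for other numbers. One guide, UBE2A.7, held 0.155% to 1.13% of the counts at 0 µM and up to 18.6% in replicate 2 at 1500 µM, which lowers the CPM of every other guide there; the fitted fold changes use TMM scaling instead.

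Of the 50 guides, 43 had 10 or more counts in 3 or more of the 9 libraries and were tested, as did 10337 of all 11170 guides. The numbers tested were 9 of 10 for XIAP, 5 of 10 for BIRC5, 10 of 10 for BIRC6, 10 of 10 for BIRC7 and 9 of 10 for BIRC8. The 7 guides that did not reach this level were XIAP.1, BIRC8.6 and 5 guides against BIRC5.

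No guide and no summed gene among them passed the edgeR quasi-likelihood test, fitted without a block to all 6 libraries of a pair of doses. In simulated data for 1500 against 0 µM this fit recovered 0% of 4-fold and 0% of 16-fold guide changes. It could therefore hardly call a single guide. For summed genes, drawn at random from all genes, it recovered 82% and 100%. These rates need not hold for XIAP, whose SE in that comparison was 1.38 on the log2 scale. For BIRC5 to BIRC8 the SE was 0.33 to 0.57. Summed XIAP passed in some other fits, which are given with it. What the counts show is 1 guide against XIAP that dominated 1 untreated library, and a scarce set of guides against BIRC5. For 38 of the 43 tested guides, replicate number also held more of the spread in level than dose did. That share (88.4%) was close to the 90.3% of all tested guides. These are taken in turn below.

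XIAP.8 had 46599 counts in replicate 1 at 0 µM, 718 in replicate 2 and 466 in replicate 3. It had 503, 604 and 3096 counts in replicates 1 to 3 at 200 µM. It had 1323, 2526 and 3641 counts at 1500 µM. Replicate 1 at 0 µM stood far above the other 8 libraries, while replicates 2 and 3 at 0 µM were among the lowest.

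In that library XIAP.8 was the most abundant of the 11170 guides and held 2.51% of all counts (95% Clopper-Pearson interval 2.49% to 2.54%). It also made up 99.1% of the counts of the 10 XIAP guides there (98.96% to 99.1%). In the other 8 libraries it ranked between 5th and 934th and made up 31.7% to 88.1% of the XIAP counts. It was therefore an abundant guide in several libraries, and the single most abundant one in 1.

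In CPM, XIAP.8 stood at 25148 CPM in replicate 1 at 0 µM, and its next highest library, replicate 3 at 1500 µM, had 1725 CPM. The ratio between them was 14.6, the third highest among the 6604 guides that reached 100 CPM in some library. That ratio exceeded 10 for 8 of those guides, and for all 8 the highest library was replicate 1 at 0 µM. A ratio above 10 was thus also seen for 7 guides against other genes, in the same library. Their highest levels were far lower, 109 to 1037 CPM, with 9.95 to 90.5 CPM in their next highest library. The cause of the XIAP.8 jump was not tested.

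Within a replicate number, XIAP.8 went in different directions from 0 to 1500 µM. In replicate 1 the CPM at 1500 µM was 53.0-fold lower than at 0 µM. In replicates 2 and 3 it was 3.19-fold and 6.86-fold higher. From 0 to 200 µM it was 103-fold lower in replicate 1, the ratio was 0.98 in replicate 2, and it was 4.997-fold higher in replicate 3.

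Between the treated doses the direction was the same in each replicate number. XIAP.8 was 1.95-fold, 3.25-fold and 1.37-fold higher at 1500 than at 200 µM in replicates 1, 2 and 3. The groups still overlapped, since replicate 3 at 200 µM, with 1257 CPM, lay above replicates 1 and 2 at 1500 µM, with 474 and 993 CPM.

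The fits of XIAP.8 reflect these counts. Its log2 fold change was -3.21 ± 2.17 (SE) at 1500 against 0 µM, -4.17 ± 2.38 at 200 against 0 µM and 0.96 ± 1.01 at 1500 against 200 µM, with adjusted p of at least 0.9998 in edgeR. Without replicate 1 at 0 µM the first pair became 1.89 and 0.94, so that 1 library set the sign of both comparisons with untreated cells. With the replicate number as a block, the value at 1500 against 200 µM was 1.176 ± 0.31 (adjusted p = 0.9996 in edgeR), and DESeq2 with the same replicate block gave 1.15 ± 0.32 with an adjusted p of 0.0489. DESeq2 called 0.135% of all tested guides higher and 0.281% lower in that comparison and fit.

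The other 9 XIAP guides were far less abundant, with 0 to 602 counts. XIAP.5 was the most abundant of them, with 87, 476 and 27 counts at 0 µM, 249, 602 and 92 at 200 µM, and then 151, 546 and 37 at 1500 µM in replicates 1 to 3. Replicate 2 was the highest at each dose and replicate 3 the lowest. Replicate number held 88.9% of the sum of squares of its log2(CPM + 1) and dose 9.96%.

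XIAP.10 differed from this in that dose held more of its spread than replicate number, 62.2% against 14.6%. It had 11, 41 and 44 counts at 0 µM, 163, 68 and 191 at 200 µM, and then 177, 57 and 145 at 1500 µM. All 3 of its libraries at 200 µM lay, in CPM, above all 3 at 0 µM, while at 1500 µM replicate 2, with 22.4 CPM, lay below replicate 3 at 0 µM, with 23.8 CPM. UBE2A.7 held 18.6% of the counts of replicate 2 at 1500 µM, so this overlap depended on having UBE2A.7 in the CPM total. The log2 fold change of XIAP.10 was 1.86 ± 0.90 (SE, unadjusted p = 0.0740, adjusted p = 0.9999 in edgeR) at 200 against 0 µM and 1.64 ± 0.89 (unadjusted p = 0.103 in edgeR) at 1500 against 0 µM. In CPM it was higher in 3 of 3 replicate numbers in both comparisons, which share the untreated libraries. So were XIAP.3 and XIAP.5, while XIAP.9 was lower in 3 of 3 in both. Over all tested guides 12.2% were higher and 11.6% lower in this way at 1500 against 0 µM. At 200 against 0 µM it was 15.5% and 8.46%.

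XIAP.9 lay the other way at the highest dose. It had 117, 153 and 245 counts at 0 µM, 121, 58 and 174 at 200 µM, and then 176, 6 and 113 at 1500 µM. In CPM the 3 libraries at 1500 µM were below the 3 at 0 µM, by as little as 63.07 against 63.14 CPM in replicate 1. In replicate 1, UBE2A.7 held 6.07% of the counts at 1500 µM and 0.155% at 0 µM. The separation therefore depended on having UBE2A.7 in the CPM total. At 1500 against 0 µM the fitted change of XIAP.9 was -1.23 ± 1.04 on the log2 scale (SE, adjusted p = 1 in edgeR), and replicate 2 held its lowest value, 2.36 CPM. Without that library the change was -0.68, and without any other single library it lay between -1.81 and -0.95. XIAP.9 and XIAP.10, which target the same gene, therefore stood in opposite directions at 1500 µM, and neither passed the test.

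XIAP.2 and XIAP.4 had their lowest untreated counts in replicate 1. XIAP.2 had 8, 223 and 49 counts at 0 µM, 30, 151 and 29 at 200 µM, and then 108, 95 and 39 at 1500 µM. XIAP.4 had 13, 86 and 48 counts at 0 µM, 121, 40 and 79 at 200 µM, and then 94, 28 and 55 at 1500 µM. For both guides replicate 1 was lower at 0 µM than at either treated dose, and replicate 2 was higher.

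XIAP.3 and XIAP.7 were at or near 0 in some replicate numbers. XIAP.3 had 123, 0 and 0 counts at 0 µM, 204, 4 and 24 at 200 µM, and then 191, 54 and 45 at 1500 µM. XIAP.7 had 48, 7 and 5 counts at 0 µM, 77, 0 and 0 at 200 µM, and then 80, 0 and 0 at 1500 µM. Replicate 1 was the highest at each dose for both, and for XIAP.7 replicates 2 and 3 were at 0 under both treated doses, after 7 and 5 counts at 0 µM.

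XIAP.6 had 32, 57 and 143 counts at 0 µM, 121, 62 and 53 at 200 µM, and then 193, 131 and 49 at 1500 µM. XIAP.1, which was not tested, had 5, 0 and 2 counts at 0 µM, 0 in all 3 libraries at 200 µM, and then 0, 0 and 8 at 1500 µM. XIAP.6 showed no common order of doses, since its untreated value was the highest of the 3 doses in replicate 3 and the lowest in replicate 1. Across the 9 tested XIAP guides the median log2 fold change was -0.06 at 1500 against 0 µM, -0.06 at 200 against 0 µM and -0.20 at 1500 against 200 µM.

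Summed over its 10 guides, XIAP stood at 25388, 763 and 556 CPM at 0 µM, 768, 803 and 1518 CPM at 200 µM, and then 893, 1353 and 1957 CPM at 1500 µM. Their means were 8902 ± 14278 CPM (SD, n = 3) without drug, 1030 ± 423 at the lower dose and 1401 ± 533 at the higher. The untreated SD exceeded the untreated mean, and the groups overlapped in every pair.

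Summed XIAP counts had a log2 fold change of -2.65 ± 1.38 (SE, unadjusted p = 0.0895, adjusted p = 0.9996 in edgeR) at 1500 against 0 µM and -3.23 ± 1.44 (unadjusted p = 0.0537, adjusted p = 0.998 in edgeR) at 200 against 0 µM. These were the lowest values of the 1117 genes in both comparisons. At 1500 against 200 µM it was 0.58 ± 0.39 (adjusted p = 0.999 in edgeR). Over the 3 doses coded as equal steps, the change per step was -1.32 ± 0.58 (unadjusted p = 0.0448, adjusted p = 0.998 in edgeR). It was -0.32 ± 0.94 (adjusted p = 0.937 in edgeR) with the replicate block, and 0.07 ± 0.20 (adjusted p = 0.998 in edgeR) without XIAP.8.

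Leaving out XIAP.8 removed these extremes. The sum over the other 9 guides was 240, 452 and 304 CPM at 0 µM (mean 332 ± 109, SD, n = 3), 525, 498 and 261 CPM at 200 µM (428 ± 145) and 419, 360 and 233 CPM at 1500 µM (337 ± 95.5). The log2 fold change was 0.15 ± 0.41 (SE) at 1500 against 0 µM, 0.33 ± 0.42 at 200 against 0 µM and -0.18 ± 0.41 at 1500 against 200 µM, with adjusted p of at least 0.9991 in edgeR. By mean level at 0 µM XIAP ranked 1st of 1117 genes with XIAP.8 and 999th without it.

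The library with the XIAP.8 jump was then left out in 2 ways. Without replicate 1 at 0 µM, the summed XIAP value was 1.21 at 1500 against 0 µM and 0.63 at 200 against 0 µM, neither past the threshold. With the replicate block and all 3 numbers the values were -0.02 ± 2.03 and -0.76 ± 1.39 (adjusted p = 0.997 and 0.914 in edgeR).

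With the block and replicate number 1 left out altogether, an alternative chosen after seeing the data, they were 1.47 ± 0.18 (adjusted p = 5.92e-12 in edgeR) and 0.76 ± 0.17 (adjusted p = 0.00221 in edgeR). That fit rests on 2 pairs of libraries and 1 residual degree of freedom, with the spread pooled over genes, and it called 6 genes higher and 5 lower at 1500 against 0 µM, and 5 higher and 12 lower at 200 against 0 µM. Without XIAP.8 the same fit gave -0.21 ± 0.27 and -0.04 ± 0.27 for XIAP (adjusted p = 0.949 and 0.996 in edgeR), so the calls rested on that guide. Without replicate number 2 in place of 1 the summed XIAP values were -1.49 and -1.84, and without number 3 they were -1.89 and -2.57, none of them called in edgeR.

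At 1500 against 200 µM, where replicate 1 at 0 µM takes no part, the summed XIAP level was higher in CPM in 3 of 3 replicate numbers, as it was for 2.95% of all genes. The replicate block gave 0.59 ± 0.13 (adjusted p = 0.208 in edgeR), and DESeq2 with the block gave 0.57 ± 0.12 with an adjusted p of 0.00133. In that fit DESeq2 called 0.537% of the 1117 genes higher and 1.61% lower. In edgeR with the block the summed XIAP value was 0.71 without replicate number 1 (adjusted p = 0.000137), 0.36 without number 2 (adjusted p = 0.722) and 0.68 without number 3 (adjusted p = 0.359). These fits were chosen after seeing the data and rest on 2 pairs of libraries and 1 residual degree of freedom. The fit without number 1 called 1 of 1117 genes higher and 0 lower. Without XIAP.8 the value in DESeq2 was -0.19 ± 0.15 (adjusted p = 0.684). The sum over the other 9 guides was lower in CPM in 3 of 3 replicate numbers, as it was for 32.8% of all genes. UBE2A.7 held 6.07%, 18.6% and 4.97% of the counts in replicates 1 to 3 at 1500 µM, against 0.289%, 0.768% and 2.60% at 200 µM. That lowers the CPM of other genes at 1500 µM and so moves both shares of all genes. By the sign of the TMM-scaled fold change in edgeR without a block, 525 of 1117 genes were higher and 592 lower.

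BIRC7, the RING-domain member livin, had evenly spread guides, with 1 of 90 values at 0 and a median count of 127. Its summed level was 781, 488 and 965 CPM at 0 µM, 773, 542 and 1197 CPM at 200 µM, and then 760, 522 and 823 CPM at 1500 µM. Replicate 2 was the lowest and replicate 3 the highest at every dose, and the groups overlapped. The log2 fold change was -0.00057 ± 0.33 (SE) at 1500 against 0 µM, 0.12 ± 0.41 at 200 against 0 µM and -0.13 ± 0.34 at 1500 against 200 µM, with adjusted p of at least 0.998 in edgeR.

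BIRC7.2, its most abundant guide at 0 µM, had 232, 467 and 195 counts at 0 µM, 247, 391 and 190 at 200 µM, and then 269, 380 and 126 at 1500 µM. Its CPM was lower at 200 than at 0 µM, and lower at 1500 than at 200 µM, in each of the 3 replicate numbers. The order of the replicates was the same at each dose, with replicate 2 highest. Its fitted change at 1500 against 0 µM was -0.51 ± 0.72 on the log2 scale (SE, adjusted p = 1 in edgeR).

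BIRC7.5 had 28, 43 and 18 counts at 0 µM, 49, 138 and 84 at 200 µM, and then 17, 147 and 9 at 1500 µM. Its 3 libraries at 200 µM lay above the 3 at 0 µM, with a log2 fold change of 1.34 ± 0.98 (SE, adjusted p = 0.9999 in edgeR) that was 0.74 without replicate 2 at 200 µM, while at 1500 µM replicates 1 and 3 were below all untreated libraries. BIRC7.6 had 371, 32 and 160 counts at 0 µM, 184, 29 and 236 at 200 µM, and then 255, 95 and 140 at 1500 µM, and its value of -0.74 ± 0.97 at 1500 against 0 µM became 0.46 without replicate 1 at 0 µM.

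BIRC8, the relative of XIAP, had the highest summed level of the 5 genes once XIAP.8 was set aside and ranked 27th of 1117 genes at 0 µM. It stood at 1029, 2518 and 1882 CPM at 0 µM, 1376, 2537 and 1398 CPM at 200 µM, and then 1279, 1426 and 1550 CPM at 1500 µM. Replicate 2 was the highest at 0 and 200 µM but not at 1500 µM, and the groups overlapped. BIRC8 had a log2 fold change of -0.24 ± 0.38 (SE) at 1500 against 0 µM, -0.08 ± 0.43 at 200 against 0 µM and -0.17 ± 0.31 at 1500 against 200 µM, with adjusted p of at least 0.998 in edgeR.

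BIRC8.2 carried much of this level in replicate 2. It had 264, 4207 and 263 counts at 0 µM, 388, 3789 and 291 at 200 µM, and then 221, 2005 and 420 at 1500 µM. Replicate 2 stood above replicates 1 and 3 at every dose. Replicate number held 91.3% of the sum of squares of its log2(CPM + 1) and dose 2.56%.

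BIRC8.9 had the lowest unadjusted p of the BIRC8 guides. It had 45, 86 and 339 counts at 0 µM, 48, 35 and 66 at 200 µM, and then 119, 56 and 127 at 1500 µM. Replicate 3 at 0 µM stood above all the others, and the groups overlapped. The log2 fold change was -1.92 ± 0.93 (SE, unadjusted p = 0.0741, adjusted p = 0.9999 in edgeR) at 200 against 0 µM and was -0.69 without replicate 3 at 0 µM.

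BIRC8.4 had 92, 40 and 213 counts at 0 µM, 111, 91 and 516 at 200 µM, and then 260, 80 and 252 at 1500 µM. Of the 9 tested BIRC8 guides it alone had a positive value at 200 against 0 µM, 0.64 ± 0.93 (SE, adjusted p = 0.9999 in edgeR). The other 8 lay between -1.92 and -0.07. The median over the 9 guides was -0.16 in that comparison and -0.51 at 1500 against 0 µM, where 7 of 9 were negative. Over all tested guides 57.5% and 56.2% were negative in these comparisons, with medians of -0.09 and -0.08.

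BIRC5, the passenger-complex subunit that dividing cells need, had the fewest counts. Of its 90 values 45 were 0, the median count was 1, and BIRC5.5 and BIRC5.7 were at 0 in all 9 libraries. Over all genes, 36 of 1117 (3.22%) had 5 or fewer tested guides. The shortage was present at 0 µM, where the summed level ranked 46th from the lowest of 1117 genes. Whether these guides were scarce in the pool before the cells received it was not tested, since no such library was analysed here.

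The summed BIRC5 level was 99.8, 120 and 254 CPM at 0 µM, 120, 133 and 452 CPM at 200 µM, and then 160, 79.4 and 257 CPM at 1500 µM. Replicate 3 was the highest at each dose, and the groups overlapped. BIRC5 had a log2 fold change of 0.15 ± 0.57 (SE) at 1500 against 0 µM, 0.55 ± 0.65 at 200 against 0 µM and -0.40 ± 0.64 at 1500 against 200 µM, with adjusted p of at least 0.998 in edgeR. In 3 of 3 replicate numbers it was higher in CPM at 200 than at 0 µM, as were 19.9% of all genes.

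BIRC5.9 held much of that sum, with 43, 174 and 213 counts at 0 µM, 108, 185 and 441 at 200 µM, and then 171, 89 and 175 at 1500 µM. Replicate 2 at 1500 µM was below replicate 2 at the other doses, and the groups overlapped. Between 1500 and 200 µM its log2 fold change was -0.75 ± 0.68 (SE, adjusted p = 0.9998 in edgeR), and it was -0.25 without replicate 3 at 200 µM.

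BIRC5.8 had 24, 20 and 26 counts at 0 µM, 6, 12 and 42 at 200 µM, and then 0, 0 and 15 at 1500 µM. Its libraries at 1500 µM lay below all 3 at 0 µM, with 7.10 CPM as the highest treated value against 8.66 CPM as the lowest untreated one. The log2 fold change was -2.54 ± 2.21 (SE, adjusted p = 1 in edgeR), and it was -7.73 without replicate 3 at 1500 µM, where both remaining treated libraries are at 0 and the value is no bound. The untreated libraries held no more than 26 counts of it each, and the SE was nearly as large as the value.

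BIRC6, the large conjugating enzyme, had summed levels of 433, 1790 and 555 CPM at 0 µM, 551, 1422 and 751 CPM at 200 µM, and then 713, 1094 and 667 CPM at 1500 µM. Replicate 2 was the highest at every dose. Replicate 2 was lower, and replicates 1 and 3 were higher, at both treated doses than at 0 µM. BIRC6 had a log2 fold change of -0.04 ± 0.55 (SE) at 1500 against 0 µM, -0.08 ± 0.59 at 200 against 0 µM and 0.03 ± 0.43 at 1500 against 200 µM, with adjusted p of at least 0.998 in edgeR, and its sign turned with the replicate block in both comparisons with 0 µM.

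BIRC6.3, the most abundant guide against it, had 476, 2809 and 177 counts at 0 µM, 448, 2010 and 476 at 200 µM, and then 961, 1717 and 255 at 1500 µM. It held most of the BIRC6 counts of replicate 2 at each dose. Replicate number held 91.6% of the sum of squares of its log2(CPM + 1) and dose 0.507%.

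BIRC6.10 had 66, 87 and 134 counts at 0 µM, 47, 172 and 184 at 200 µM, and then 310, 104 and 278 at 1500 µM, with a log2 fold change of 0.89 ± 0.68 (SE, adjusted p = 1 in edgeR) at 1500 against 0 µM. BIRC6.6 had 4, 14 and 30 counts at 0 µM, 0, 8 and 19 at 200 µM, and then 20, 79 and 25 at 1500 µM, with 2.32 ± 1.95 (adjusted p = 0.9998 in edgeR) at 1500 against 200 µM, which was 1.30 without replicate 2 at 1500 µM. Both were higher in 3 of 3 replicate numbers in those comparisons while the groups overlapped. BIRC6.2, with 0 to 30 counts, was higher in all libraries at 200 µM than in any at 0 or 1500 µM. It met the count filter only through its 200 µM libraries, with 20, 13 and 30 counts, so its separation is no independent support.

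Across the 43 tested guides, those whose 3 libraries of a dose all lay on 1 side of the 3 of the other dose were few. At 1500 against 0 µM none lay higher, against 1.56% of all tested guides, and XIAP.9 and BIRC5.8 lay lower (4.65% against 1.05%). For XIAP.9 and XIAP.10 this placing depended on having UBE2A.7 in the CPM total. The shares over all tested guides use the same CPM. At 200 against 0 µM XIAP.10, BIRC7.5 and BIRC6.2 lay higher (6.98% against 1.7%) and none lower (0.532% of all). At 1500 against 200 µM none lay higher (0.948% of all) and BIRC6.2 lay lower (2.33% against 1.58%). BIRC6.2 was tested only because of its 200 µM libraries, where it is high, so its place in both counts is in part set by the filter.

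Guides with the same direction in CPM in all 3 replicate numbers were also counted, again with UBE2A.7 in the totals. At 1500 against 0 µM 7 of 43 were higher (16.3% against 12.2% of all tested guides) and 5 lower (11.6% in both). At 200 against 0 µM 8 were higher (18.6% against 15.5%) and 4 lower (9.30% against 8.46%), and at 1500 against 200 µM 6 were higher (14.0% against 8.52%) and 7 lower (16.3% against 16.5%).

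In edgeR 0 of the 43 guides passed in any pair of doses, with 0% of all tested guides called in each direction. This fit recovered 0% of 16-fold guide changes in simulated data, so 0 calls do not show that the guides were unchanged. At an unadjusted p under 0.05 there were 21, 14 and 21 of all guides in edgeR at 1500 against 0, 200 against 0 and 1500 against 200 µM, and 0 of the 43 in each. The DESeq2 Wald test without a block also called 0 guides, with 61, 40 and 33 at an unadjusted p under 0.05. DESeq2 with the replicate block called 0.029% of guides higher and 0.029% lower at 1500 against 0 µM, and 0.00967% higher and 0.0484% lower at 200 against 0 µM. Among the 43 guides, XIAP.8 at 1500 against 200 µM was the 1 call of that fit over the 3 comparisons, but in that comparison DESeq2 gave no adjusted p for 25 of the 43, which could not be called. The median log2 fold change of the 43 guides was -0.10, -0.07 and -0.16 in those 3 comparisons, beside -0.08, -0.09 and 0.01 over all tested guides.

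Replicate number held a median of 67.0% of the sum of squares of log2(CPM + 1) over the 43 guides and dose 7.87%, and its share was the smaller for 5 guides, XIAP.4, XIAP.6, XIAP.10, BIRC5.8 and BIRC6.2. For XIAP.8 replicate number held 11.1% and dose 9.33%, so most of its spread lay in neither. Over all tested guides the medians were 73.0% and 7.03%. By gene the median share of replicate number was 40.5% for XIAP, 55.0% for BIRC5, 59.8% for BIRC6, 79.3% for BIRC7 and 80.0% for BIRC8.

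By mean summed level at 0 µM the order was XIAP, BIRC8 (1810 ± 747 CPM, SD, n = 3), BIRC6 (926 ± 751), BIRC7 (745 ± 241) and BIRC5 (158 ± 83.8). With XIAP.8 left out, XIAP lay between BIRC7 and BIRC5. At 0 µM the libraries of BIRC8 and BIRC6 overlapped, as did those of BIRC6 and BIRC7. Those of BIRC7 and of XIAP without XIAP.8 did not overlap, and those of the latter and BIRC5 did, at 240 against 254 CPM. These are levels of guides in the cell pool. How much of each guide was delivered was not measured here, and what set this order was not tested.

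The exact two-sided permutation test of summed levels, as log2(CPM + 1) with 3 against 3 libraries, cannot go below 0.1. For the 5 genes and XIAP without XIAP.8 it gave p from 0.4 to 1, and none of them was free of overlap in any pair. Over all genes the groups did not overlap for 0.627% (higher) and 2.06% (lower) at 1500 against 0 µM, for 1.61% and 0.537% at 200 against 0 µM, and for 0.0895% and 1.88% at 1500 against 200 µM. Of the related BIRC2 and BIRC3, which act on NF-κB signalling, BIRC2 stood at 2231, 2529 and 1646 CPM at 200 µM and at 1375, 1455 and 1358 CPM at 1500 µM without overlap (exact permutation p = 0.1), and BIRC3 at 725, 800 and 723 CPM at 0 µM and 1117, 844 and 841 CPM at 200 µM without overlap (exact permutation p = 0.1). UBE2A.7 held 18.6% of the counts of replicate 2 at 1500 µM, so the BIRC2 separation depended on having UBE2A.7 in the CPM total.

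The genes whose summed levels ran most like those of the 5 genes over the 9 libraries were found by Pearson's r of log2(CPM + 1), among 1116 other genes. For XIAP they were RNF149 (0.89), UBR3 (0.87) and NFE2L2 (0.86), and without XIAP.8 they were PSME4 (0.90), RUSC1 (0.89) and PHF7 (0.88). For BIRC5 they were MUL1 (0.97), CAND1 (0.95) and GID4 (0.95), and for BIRC6 they were UBE2B (0.98), FBXW11 (0.97) and EGFR (0.96). For BIRC7 they were PIAS4 (0.97), KCTD19 (0.95) and FBXL7 (0.95), and for BIRC8 MAP3K1 (0.95), TSG101 (0.95) and HSPBP1 (0.94).

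None of these nearest genes was another inhibitor of apoptosis gene. Between the 5 genes, r was 0.81 for BIRC5 with BIRC7, 0.78 for BIRC6 with BIRC8 and -0.73 for BIRC6 with BIRC7. BIRC5 and BIRC7 were highest in replicate 3 at each dose, and BIRC6 and BIRC8 in replicate 2, except BIRC8 at 1500 µM. These correlations describe 9 libraries that share replicate numbers and doses, so they carry no p, and values this high are found for each gene among 1116 others.

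A further 4 lists hold genes that act with these proteins. No gene of any list passed the threshold in any pair of doses in edgeR, as for all 1117 genes, of which 0% were called in each direction (unadjusted p under 0.05 for 3, 0 and 1 genes at 1500 against 0, 200 against 0 and 1500 against 200 µM). Of caspases and antagonists of these inhibitors, 4 were in the library: CASP8 and CASP10, which start the death-receptor pathway, and DIABLO and SEPT4, which oppose XIAP. Their log2 fold changes ran from CASP8 at 0.04 ± 0.42 (SE) to DIABLO at 0.21 ± 0.31 at 1500 against 0 µM. They ran from CASP8 at 0.10 ± 0.49 to SEPT4 at 0.35 ± 0.64 at 200 against 0 µM. The medians were 0.16, 0.20 and -0.12 in the 3 comparisons, beside -0.03, -0.03 and -0.01 over all genes.

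Of the BCL2 family and regulators of the mitochondrial step, 4 were in the library, BID, BCL2, BAG6 and TMBIM6. BID, which links death receptors to mitochondria, had the highest value at 1500 against 0 µM, 0.40 ± 0.34 (SE), and BCL2, which blocks the mitochondrial step, the lowest, -0.03 ± 0.31. The same genes were, at 200 against 0 µM, highest and lowest, at 0.07 ± 0.32 and -0.12 ± 0.32. The medians were 0.05, 0.00036 and 0.10.

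Of ubiquitin enzymes and partners that work with or on these proteins, 23 of 36 were tested. At 1500 against 0 µM HSPA8, a chaperone, had the highest value, 0.60 ± 0.39 (SE), and UBE2L3, a conjugating enzyme, the lowest, -0.42 ± 0.42. UBE2N, which builds ubiquitin chains used in signalling, had 0.54 ± 0.89 and UBE2L3 -0.32 ± 0.42 at 200 against 0 µM. The medians were -0.02, 0.02 and -0.08.

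Of passenger-complex and midbody partners of BIRC5 and BIRC6, 7 of 18 were tested. They were PLK1, AURKA, CUL3, KLHL9, KLHL13, KLHL21 and FBXL7. AURKB, INCENP and CDCA8, also on the list, were not in the library. PLK1, a mitotic kinase, had the highest value in both comparisons with 0 µM, 0.46 ± 0.68 (SE) at 1500 µM and 0.48 ± 0.66 at 200 µM. AURKA, another mitotic kinase, was lowest at 1500 µM with -0.38 ± 0.51, and KLHL21, a ligase adaptor that acts on the passenger complex, was lowest at 200 µM with -0.44 ± 0.33. The medians were -0.18, -0.17 and 0.02.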

How the data were processed

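The counts were deposited by the authors as 1 table, by sgRNA and target gene, for 9 DNA libraries of U251 cells, 3 each at 0, 200 and 1500 µM. Per the submitters' processing notes, cutadapt 1.18 and MAGeCK 0.5.8 were run, with hg19 as build. Mismatches and filters were not given in the sources used.

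Counts were tested as deposited with edgeR 4.0.16 (quasi-likelihood, TMM, robust), per guide and summed per gene, for each pair of doses on its 6 libraries without a block, with a minimum of 10 counts in 3 of the 9 libraries and Benjamini-Hochberg adjustment over all guides or all genes at 0.05. The dose-step fit used all 9 libraries. Each SE was derived from the log2 fold change and its F statistic and is approximate near 0 counts. CPM uses the library's total, and log2(CPM + 1) a pseudocount of 1. DESeq2 1.42.0 and limma 3.58.1 were alternatives, in R 4.3.3. The scripts were tested on simulated data for 1500 against 0 µM, with the spread left after the replicate number was fitted. With the replicate block, edgeR recovered 31% of 4-fold and 70% of 16-fold guide changes, with 3 false calls. Without the block it recovered 0% and 0%.

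Same-numbered libraries at different doses deviated together in all 9 pairs (r 0.66 to 0.78, above 0.1), which met the rule for pairing by number. This comes from the data, since the labels only number the libraries. The block entered as an alternative only, and the permutation test was unpaired. The unblocked SEs therefore include differences between replicate numbers. At 1500 against 0 µM the edgeR SE for BIRC5, BIRC6, BIRC7 and BIRC8 was 0.57, 0.55, 0.33 and 0.38 without the block. With the block it was 0.36, 0.21, 0.16 and 0.18, while for XIAP it rose from 1.38 to 2.03. None of BIRC5 to BIRC8 passed with the block in any pair of doses (adjusted p of at least 0.81 in edgeR). The members and the gene lists were chosen with earlier results of these data known. All XIAP guides were given in full; of each other gene, the most abundant guide at 0 µM and up to 2 guides of lowest unadjusted p, besides guides whose groups did not overlap. The 3 genes most like each gene, and the highest and lowest of each list, were named.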

Additional observations from a re-analysis of the deposited data

How the results depend on the processing

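Of 41 results (24 fold changes of summed genes, 14 of guides and 3 counts of guides past the threshold), the count of guides was 0 in each pair of doses under every alternative except DESeq2 with the replicate block, which called 6 at 1500 against 0 µM, 6 at 200 against 0 µM and 43 at 1500 against 200 µM. Values below are log2 fold changes, given as 1500 against 0 µM, then 200 against 0 µM, then 1500 against 200 µM where several are listed. DESeq2 without a block gave no p for summed XIAP in the first pair of comparisons. The paired analysis with the replicate block met no call it could end, and it turned BIRC6 (0.19 and 0.090, and 0.090 per dose step), BIRC7 (0.039) and guide XIAP.8 (0.66) at 1500 against 0 µM, and with DESeq2 BIRC6 (0.18 and 0.098), BIRC7 (0.027) and XIAP.8 (0.65). DESeq2 with the block called summed XIAP at 1500 against 200 µM (0.57). The median over guides in limma gave XIAP 0.27, 0.50 and -0.23, BIRC6 0.28, 0.48 and -0.20, BIRC7 0.066, -0.0041 and 0.070, and BIRC8 0.20 at 1500 against 200 µM. BIRC7 at 1500 against 0 µM was 0.0021 with all 9 libraries in the fit and 0.00052 without UBE2A.7. The other alternatives, which were the DESeq2 size factors and no count filter, turned no sign and changed no call, and a filter of at least 50 counts did neither for the guides it was run on.

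Alternatives chosen after seeing the data were limma on summed log2(CPM + 1) with the replicate block, which turned BIRC6 (0.092, 0.15 and -0.058) and BIRC8 at 200 against 0 µM (0.00044), and the replicate block without 1 replicate number. Without number 1, XIAP was 1.47, 0.76 and 0.71 (all 3 called; none was without number 2 or 3), XIAP without XIAP.8 -0.21 and -0.044 in the first pair, BIRC5 -0.13 and BIRC7 0.077 at 1500 against 0 µM, and BIRC6 0.038 and -0.12 at 200 against 0 and 1500 against 200 µM. Without number 2, BIRC6 was 0.52 and 0.35, and BIRC8 0.042 and 0.089 at 1500 against 0 and 1500 against 200 µM. Without number 3, BIRC7 was 0.14, -0.0094 and 0.16, BIRC6 0.11 at 1500 against 0 µM, BIRC8 0.14 at 200 against 0 µM and BIRC5 0.041 at 1500 against 200 µM.

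Leaving out single libraries without a block gave no call. Ranges at 1500 against 0 µM were -3.22 to 1.21 for XIAP, -0.015 to 0.43 without XIAP.8, -0.25 to 0.62 for BIRC5, -0.40 to 0.85 for BIRC6, -0.25 to 0.18 for BIRC7, -0.50 to 0.065 for BIRC8, -3.79 to 1.89 for guide XIAP.8 and -1.25 to 0.46 for BIRC7.6. At 200 against 0 µM they were -3.79 to 0.63 for XIAP, -0.33 to 1.02 for BIRC5, -0.55 to 0.85 for BIRC6, -0.21 to 0.35 for BIRC7, -0.43 to 0.27 for BIRC8, -5.17 to 0.94 for guide XIAP.8 and -0.32 to 1.31 for BIRC8.4. At 1500 against 200 µM they were -0.44 to 0.054 for XIAP without XIAP.8, -0.80 to 0.49 for BIRC5, -0.33 to 0.51 for BIRC6, -0.37 to 0.22 for BIRC7 and -0.33 to 0.17 for BIRC8. For XIAP and guide XIAP.8 the positive ends came without replicate 1 at 0 µM, and the cause of the other turns was not tested. The depth, at most 3 counts for a value of 0, limits BIRC5 most among the 5 genes.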
